A study of Homo sapiens with 4 samples.

Results

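YAP1, its relative WWTR1 (which encodes TAZ), the DNA-binding partners TEAD1 and TEAD4 and 6 genes known as targets of these factors were followed in 2 established human lines of papillary thyroid carcinoma. ANKRD1, CCN1, CCN2, AMOTL2, THBS1 and LATS2 are the targets. The 10 genes were taken by name and chosen by the TPM of ANKRD1 in these libraries, which was high in B-CPAP and near 0 in TPC-1. All 10 were found by Ensembl ID and symbol among 58884 IDs, and all 10 were among the 14912 with a mean of at least 1 TPM (reads scaled by gene length and by library total). The difference between the lines is therefore given as a description, with no test, and the difference between temperatures is the comparison that was tested. Total RNA came from TPC-1, a line that carries a RET fusion, and from B-CPAP, a line that carries an activating BRAF mutation, each kept in submerged flasks at 37 °C or at 40 °C. The sources disagree on the length of exposure: the treatment label has 24 h, the growth protocol 15 min and the design text 20 min. Each of the 4 groups held 1 library, so no value has a spread between cultures.

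In the Hippo pathway, the kinases STK3 and STK4 with the scaffold SAV1 activate LATS1 and LATS2, which with MOB1A and MOB1B phosphorylate YAP and TAZ and keep them out of the nucleus. YAP and TAZ do not bind DNA themselves: in the nucleus they sit on TEAD factors and switch on genes such as CCN1 and CCN2, which encode secreted matrix proteins, and ANKRD1, which encodes an ankyrin repeat protein first known from heart muscle. AMOTL2 and LATS2 are targets that also restrain YAP, and activity of the pathway is set largely by phosphorylation and location of the proteins, which RNA does not show.

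Reads assigned to genes, as estimated from the TPM, came to 20704723 to 24466571 per library. Of 8 thyroid markers, PAX8, the thyroid lineage factor, was high in all libraries (98.9 to 284 TPM), FOXE1 stood at 5.95 to 9.70 TPM and HHEX at 3.35 to 10.4 TPM. NKX2-1 was listed at 0 in the TPC-1 libraries and reached 8.60 and 7.90 TPM in B-CPAP, and SLC5A5 was listed at 0 throughout. Of 5 epithelial markers KRT8 and KRT18 were high (139 to 570 TPM and 183 to 283 TPM), and CDH1 was at most 0.04 TPM. The markers of endothelial cells summed to 0.989 to 1.64 TPM and those of leukocytes to 0.325 to 1.37 TPM. The 7 fibroblast markers summed to 9.17 and 9.59 TPM in TPC-1 and to 38.1 and 46.7 TPM in B-CPAP.

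The TEAD recognition sequence GGAATG, searched on both strands, was looked for in the 250 bases before each start site, to show where the binding letters of the TEADs stand in these genes. RefSeq promoter windows (GRCh38.p14) were at hand for 7 of the 10 genes. GGAATG was found for ANKRD1, CCN2, AMOTL2, THBS1 and YAP1, and was not in the windows of WWTR1 and LATS2. AMOTL2 had another window, chr3:134375418-134375667, without it. Counted by window, 5 of the 9 windows of these genes held GGAATG. Over all 35116 windows of this length 11.9% held it at least once, 0.94% at least 2 times and 0.083% at least 3 times. The ANKRD1 window held it 2 times, beginning 220 and 128 bases before the start, and the CCN2 window 3 times, at 169, 104 and 95 bases. The AP-1 sequence TGANTCA, present in 6.57% of windows, was found for ANKRD1 alone of the 7. A match of letters is a description and shows no binding. The 4 windows of target genes that hold GGAATG are shown 5′ to 3′, with capitals marking GGAATG or its reverse complement CATTCC.
ANKRD1 promoter, chr10:90921088-90921337, minus strand: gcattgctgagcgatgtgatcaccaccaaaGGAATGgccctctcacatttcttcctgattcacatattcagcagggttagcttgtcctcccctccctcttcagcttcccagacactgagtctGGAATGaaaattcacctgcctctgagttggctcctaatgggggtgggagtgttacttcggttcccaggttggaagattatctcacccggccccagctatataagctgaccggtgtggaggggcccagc
CCN2 promoter, chr6:131951373-131951622, minus strand: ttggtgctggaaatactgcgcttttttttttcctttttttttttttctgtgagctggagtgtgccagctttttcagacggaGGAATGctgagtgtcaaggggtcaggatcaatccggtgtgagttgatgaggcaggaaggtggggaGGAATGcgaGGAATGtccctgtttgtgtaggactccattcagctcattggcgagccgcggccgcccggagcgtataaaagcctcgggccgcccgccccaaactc
THBS1 promoter, chr15:39580829-39581078, plus strand: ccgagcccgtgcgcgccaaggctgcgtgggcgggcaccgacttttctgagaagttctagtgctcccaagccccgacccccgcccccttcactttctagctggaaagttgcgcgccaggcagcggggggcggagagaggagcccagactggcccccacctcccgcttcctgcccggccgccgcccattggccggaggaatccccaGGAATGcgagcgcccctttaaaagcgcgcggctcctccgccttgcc
AMOTL2 promoter, chr3:134374448-134374697, minus strand: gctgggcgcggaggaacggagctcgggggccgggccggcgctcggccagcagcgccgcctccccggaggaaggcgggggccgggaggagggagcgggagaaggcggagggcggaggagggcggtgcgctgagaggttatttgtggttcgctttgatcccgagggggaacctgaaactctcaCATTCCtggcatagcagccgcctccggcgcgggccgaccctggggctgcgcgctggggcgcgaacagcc

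ANKRD1 (ENSG00000148677, chromosome 10, 90912096 to 90921276) was close to absent in TPC-1, at 0.08 TPM from 1 read at 37 °C and listed at 0 at 40 °C. In B-CPAP it reached 543 and 627 TPM, from 8025 and 8686 reads, as the 205th and 152nd highest protein-coding gene of those libraries. The levels of the lines lay far apart at both temperatures, while the 2 TPC-1 libraries cannot be told apart at this depth. The ratio of B-CPAP to TPC-1 at 37 °C was 6504 with a 95% counting interval of 1167 to 256933. At 40 °C, against a floor of 3 reads in the TPC-1 library, B-CPAP was at least 2391-fold higher. The floor is a set number of reads, and the exact (Clopper-Pearson) lower limit of the ratio at 40 °C was 1944. Intervals and floors cover counting error only and compare libraries. Reads are not molecules, and in bulk RNA a smaller share of expressing cells cannot be told apart from less RNA per cell. Of 7 striated muscle markers the troponin gene TNNT2, the myosin heavy chain genes MYH6 and MYH7 and the myogenic factor gene MYOG were at 0 in all libraries. The cardiac actin gene ACTC1 stood at 0.07 and 0 TPM (TPC-1) against 29.8 and 23.5 TPM (B-CPAP).

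CCN1 and CCN2, the classical readouts of YAP and TAZ, were also higher in B-CPAP, by single-digit ratios. CCN1 (ENSG00000142871, chromosome 1, 85580761 to 85583962) stood at 179 and 197 TPM (TPC-1) against 898 and 824 TPM (B-CPAP). The ratio between the lines was 5.02 at 37 °C (interval 4.82 to 5.23) and 4.18 at 40 °C (interval 4.01 to 4.35). CCN2 (ENSG00000118523, chromosome 6, 131948176 to 131951373) was at 38.5 and 38.6 TPM (TPC-1) against 280 and 264 TPM (B-CPAP). Its ratio was 7.26 (interval 6.65 to 7.95) and 6.84 (interval 6.25 to 7.51). For both genes each B-CPAP library lay above each TPC-1 library, and both were plainly present in TPC-1, where ANKRD1 was not.

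Of the other 3 target genes AMOTL2 was higher in B-CPAP by smaller ratios, and THBS1 and LATS2 were lower. AMOTL2 (chromosome 3, 134355874 to 134375479), an angiomotin family protein that binds YAP, was at 38.5 and 47.6 TPM (TPC-1) against 79.9 and 68.2 TPM (B-CPAP). Each B-CPAP library lay above each TPC-1 library, by a ratio of 2.07 at 37 °C and 1.43 at 40 °C. THBS1 (chromosome 15, 39581079 to 39599466), a matrix glycoprotein gene, was at 135 and 154 TPM (TPC-1) against 101 and 126 TPM (B-CPAP). LATS2 (chromosome 13, 20973032 to 21061547), the kinase that phosphorylates YAP, was at 26.0 and 29.02 TPM (TPC-1) against 20.7 and 23.2 TPM (B-CPAP). Both were lower in B-CPAP, with ratios of 0.751 and 0.818 for THBS1 and 0.793 and 0.799 for LATS2, and no library of B-CPAP reached the TPC-1 library of its own temperature.

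**Figure D1:**
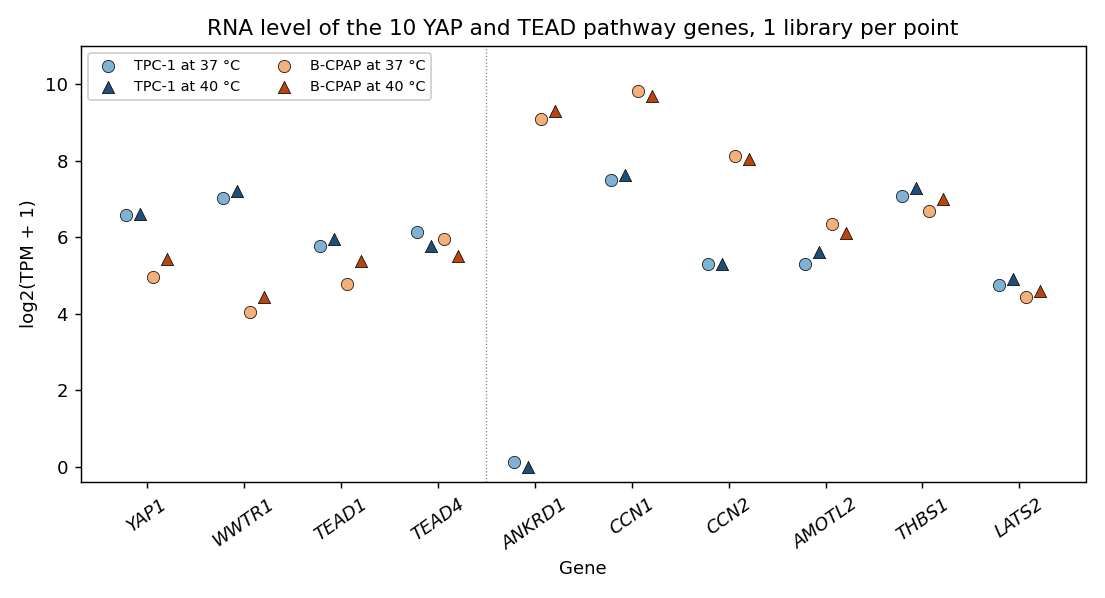
RNA level of each of the 10 genes as log2(TPM + 1) on the vertical axis, with 1 point per library (blue for TPC-1, orange for B-CPAP, circles for 37 °C, triangles for 40 °C) and the regulators left of the dotted line. ANKRD1 lies at or near 0 in TPC-1 and far above it in B-CPAP, while YAP1 and WWTR1 are lower in B-CPAP.

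The factors themselves went the other way. YAP1 (ENSG00000137693, chromosome 11, 102110461 to 102233423) stood at 95.2 and 96.1 TPM (TPC-1) against 30.2 and 42.4 TPM (B-CPAP). It was 3.15-fold higher in TPC-1 at 37 °C and 2.26-fold higher at 40 °C. WWTR1 (ENSG00000018408, chromosome 3, 149517235 to 149736714) was at 129 and 147 TPM (TPC-1) against 15.5 and 20.9 TPM (B-CPAP). TPC-1 was 8.31-fold and 7.05-fold higher, and each of its libraries lay above each B-CPAP library for both genes. Summed, YAP1 and WWTR1 reached 224 and 243 TPM in TPC-1 against 45.7 and 63.3 TPM in B-CPAP. WWTR1 made up 57.5 and 60.5% of the sum in TPC-1, and YAP1 made up 66.1 and 67.0% in B-CPAP.

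TEAD levels differed less. TEAD1 (chromosome 11, 12674591 to 12944483) was at 53.8 and 61.2 TPM (TPC-1) against 26.2 and 40.4 TPM (B-CPAP), with ratios of B-CPAP to TPC-1 of 0.487 and 0.660. TEAD4 (chromosome 12, 2959330 to 3040673) was at 69.4 and 53.7 TPM (TPC-1) against 60.6 and 44.5 TPM (B-CPAP), and here the libraries of the lines interleave. All 4 TEAD genes were expressed in every library and TEAD2 was the highest, at 93.1 and 82.4 TPM (TPC-1) against 64.4 and 51.7 TPM (B-CPAP). The sum over TEAD1 to TEAD4 was 244 and 223 TPM (TPC-1) against 179 and 159 TPM (B-CPAP), a ratio of 0.733 at 37 °C and 0.714 at 40 °C. Of the VGLL co-factors, which compete for TEADs, VGLL4 stood at 14.6 and 14.4 TPM (TPC-1) against 7.05 and 8.60 TPM (B-CPAP). VGLL3 was listed at 0 for TPC-1, with 0.67 and 1.55 TPM in B-CPAP, and VGLL1 and VGLL2 at 0 throughout.

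**Figure D2:**
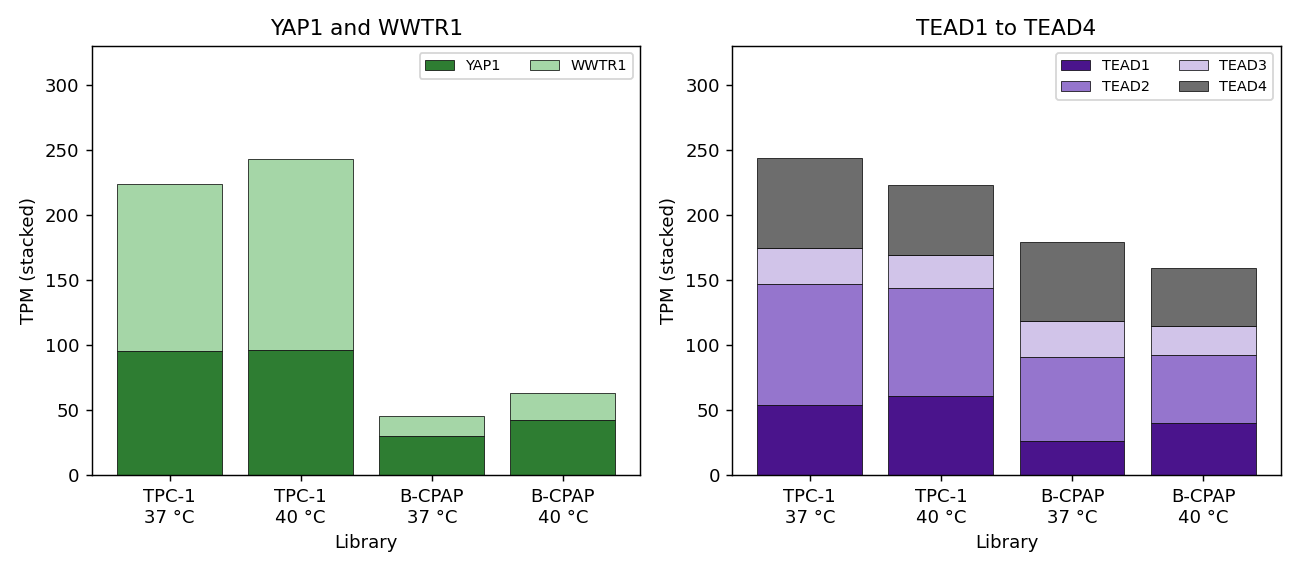
Stacked TPM (vertical axis) of YAP1 and WWTR1 (left) and of the 4 TEAD genes (right) in each of the 4 libraries, 1 bar per library with no error bar since each group held 1 library. The YAP1 and WWTR1 sum is 224 and 243 TPM in the TPC-1 bars against 45.7 and 63.3 TPM in the B-CPAP bars, and the TEAD sum lies between 159 and 244 TPM.

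By the rule of 2-fold or more on log2(TPM + 1) in the same direction at both temperatures, 3 of the 10 genes were higher in B-CPAP (ANKRD1, CCN1 and CCN2) and 2 were lower (YAP1 and WWTR1). Of all 14912 genes 13.5% were higher and 14.4% lower by the same rule. The median difference of the 10 genes, B-CPAP minus TPC-1, was -0.26 at 37 °C and -0.28 at 40 °C, beside -0.08 and -0.02 over all genes. AMOTL2 and TEAD1 passed 2-fold at 37 °C alone, with differences of 1.03 and -1.01 there and 0.51 and -0.59 at 40 °C.

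The other genes of a published set of YAP and TAZ targets across cancers did not follow ANKRD1 as a group. Of these 17 genes, 1 was 2-fold higher in B-CPAP at both temperatures and 5 were lower, against 13.5% and 14.4% of all genes. Their median difference was -0.13 at 37 °C and -0.24 at 40 °C, beside -0.08 and -0.02 over all genes. The higher gene was F3, which encodes tissue factor, at 4.01 and 4.02 TPM (TPC-1) against 210 and 256 TPM (B-CPAP) (ratio 52.3, interval 41.1 to 66.9, and 63.6, interval 49.8 to 81.9). The forkhead factor gene FOXF2 was at 39.0 and 39.8 TPM (TPC-1) against 0.66 and 0.82 TPM (B-CPAP). IGFBP3, which encodes a binding protein of insulin-like growth factors, was at 1003 and 1159 TPM (TPC-1) against 115 and 109 TPM (B-CPAP). The membrane repair gene MYOF, the phosphatase gene PTPN14, whose product binds YAP, and NUAK2, a kinase gene named here after its values were seen, were also 2-fold lower. The receptor kinase gene AXL, chosen after its values were seen as an established target, was near even at 538 and 518 TPM (TPC-1) against 506 and 450 TPM (B-CPAP).

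Of the paralogs of the target genes, those of ANKRD1 were low in both lines, while CCN3, THBS2 and THBS3 were higher in B-CPAP. The muscle ankyrin repeat genes ANKRD2 and ANKRD23, the closest relatives of ANKRD1, reached at most 0.91 and 0.21 TPM in any library. In the CCN family, CCN3 stood at 0.63 and 0.53 TPM (TPC-1) against 87.5 and 109 TPM (B-CPAP), and CCN4, CCN5 and CCN6 reached at most 1.09 TPM. THBS2 was at 0.72 and 0.70 TPM (TPC-1) against 5.39 and 6.91 TPM (B-CPAP), and THBS3 at 6.55 and 8.57 TPM and at 16.9 and 18.1 TPM. By the rule on log2(TPM + 1), CCN3 and THBS2 were 2-fold higher in B-CPAP at both temperatures, where THBS1 was lower. THBS3 had TPM ratios of 2.58 and 2.11 but fell just short of the rule at 40 °C, with a difference of 0.993.

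**Figure D3:**
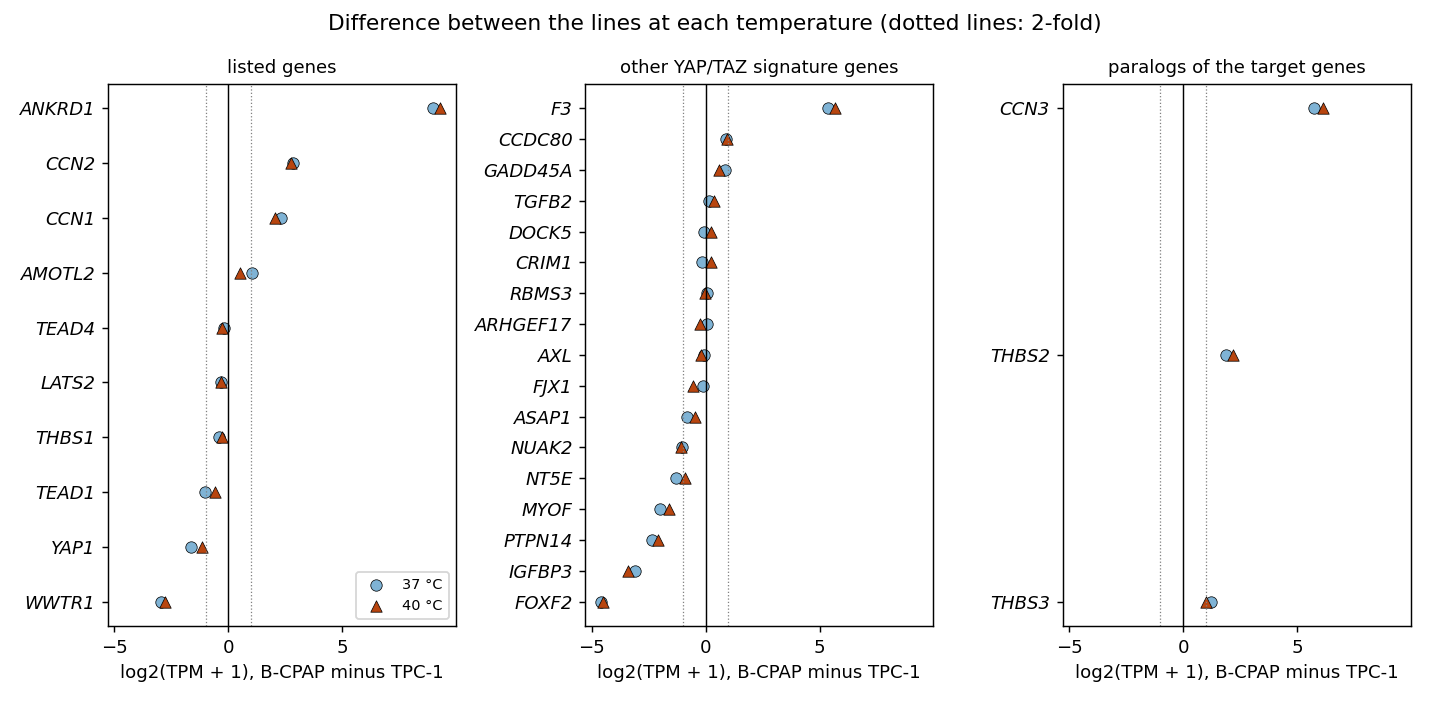
Difference in log2(TPM + 1), B-CPAP minus TPC-1 (horizontal axis), for the 10 listed genes, the 17 other signature genes and the 3 paralogs with a mean of at least 1 TPM, with circles for 37 °C, triangles for 40 °C and dotted lines at 2-fold. ANKRD1 (8.97 and 9.30), CCN3 and F3 stand far to the right, and WWTR1, FOXF2 and IGFBP3 to the left.

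Upstream, 16 of 22 core Hippo genes were lower in B-CPAP at 37 °C and 14 at 40 °C, where 8001 and 7555 of all 14912 genes were lower. Of the 22 tested kinase, adaptor and scaffold genes 7 were 2-fold lower at both temperatures and 1 was higher, against 14.4% and 13.5% of all genes. The median difference was -0.73 at 37 °C and -0.50 at 40 °C, beside -0.08 and -0.02 over all genes. The atypical cadherin gene FAT4 was at 16.5 and 18.6 TPM (TPC-1) against 1.41 and 1.96 TPM (B-CPAP), and AMOT, the founding angiomotin, at 14.1 and 14.7 TPM and at 1.53 and 2.49 TPM. The kinase gene MAP4K4 was at 163 and 167 TPM (TPC-1) against 27.2 and 38.0 TPM (B-CPAP). STK3 was 3.92-fold and 2.57-fold higher in TPC-1, and WWC3 2.62-fold and 2.42-fold. FRMD6 was the gene that was higher in B-CPAP, at 10.1 and 12.3 TPM (TPC-1) against 24.5 and 30.8 TPM (B-CPAP). LATS1, named as the partner of LATS2 after its values were seen, was 2.91-fold and 2.16-fold higher in TPC-1, so that LATS2 made up 65.6 and 65.1% of LATS RNA in TPC-1 and 81.5 and 76.3% in B-CPAP.

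ANKRD1, CCN1, CCN2 and THBS1 are also known to respond to SRF with its actin-sensing partner MRTF. Of 11 tested genes of the actin cytoskeleton that SRF is known to drive, 4 were 2-fold higher in B-CPAP at both temperatures and 3 lower. Of all genes 13.5% were higher and 14.4% lower by this rule. The smooth muscle gene TAGLN was at 4.90 and 3.14 TPM (TPC-1) against 106 and 80.8 TPM (B-CPAP), the tropomyosin gene TPM1 at 29.9 and 32.9 TPM and at 264 and 314 TPM. CNN1 stood at 0 and 0.06 TPM (TPC-1) against 9.45 and 6.80 TPM (B-CPAP), and FHL2 was 3.49-fold and 3.37-fold higher in B-CPAP. Against these, the myosin light chain gene MYL9 was at 135 and 116 TPM in TPC-1 and listed at 0 in B-CPAP, and the focal adhesion gene VCL was 2.75-fold and 2.50-fold higher in TPC-1. FLNA was also lower in B-CPAP, at 2451 and 2041 TPM (TPC-1) against 1175 and 912 TPM (B-CPAP).

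The genes most like ANKRD1 were sought among 9393 protein-coding genes with a mean of at least 5 TPM, by the Euclidean distance between profiles of log2(TPM + 1) over the 4 libraries, each centred on its own mean. The closest 5 were the carboxypeptidase gene CPA4 (distance 0.51), the cancer-testis genes PAGE2 (0.52) and PAGE5 (0.80), the acid phosphatase gene ACP5 (1.17) and THY1 (1.18). CPA4 stood at 0.33 and 0.61 TPM (TPC-1) against 676 and 612 TPM (B-CPAP). None of the 5 belongs to the signature, and with 2 lines this likeness says little more than that a gene is high in B-CPAP and near 0 in TPC-1.

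At 40 °C no gene of the 10 passed the test over both lines. The difference was fitted by limma on log2(TPM + 1) with the line as a block and 1 residual degree of freedom, and p-values were adjusted over all 14912 genes by the Benjamini-Hochberg method. Limma called 0% of all genes higher and 0% lower at an adjusted p of 0.05, and 2905 genes (19.5%) had an unadjusted p under 0.05. TEAD1, WWTR1 and THBS1 on the higher side and TEAD4 on the lower side were among these, 4 of the 10. The error in this fit reflects disagreement between TPC-1 and B-CPAP and holds no spread between cultures. Limma draws the error of each gene towards that of genes of similar level, so it also depends on which genes are fitted.

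By size over both lines, TEAD4 and TEAD1 differed most between temperatures. TEAD4 was lower at 40 °C in both lines, with TPM ratios of 0.774 in TPC-1 (interval 0.701 to 0.854) and 0.734 in B-CPAP (interval 0.666 to 0.808). Its log2 difference over both lines was -0.40 (SE 0.09, limma adjusted p = 0.218), lower in 2 of 2 lines. TEAD1 was higher, with ratios of 1.14 in TPC-1 (interval 1.09 to 1.19) and 1.54 in B-CPAP (interval 1.45 to 1.63), and a log2 difference of 0.39 (SE 0.13, limma adjusted p = 0.237). When protein-coding genes alone were fitted, limma called TEAD4 lower (adjusted p = 0.0232) and TEAD1 higher (adjusted p = 0.0413). That fit called 880 of 11824 genes higher and 470 lower. With genes of at least 5 TPM limma called TEAD4 alone of the 10 (adjusted p = 0.0355), where 508 genes were called higher and 359 lower. Adjusted for GC content, the limma adjusted p was 0.525 for TEAD4 and 0.620 for TEAD1. Like TEAD4, TEAD2 and TEAD3 were lower at 40 °C, with ratios of 0.885 and 0.918 in TPC-1 and 0.803 and 0.813 in B-CPAP. The share of TEAD1 in the TEAD sum was 22.03% at 37 °C and 27.5% at 40 °C in TPC-1, and 14.6 and 25.4% in B-CPAP.

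YAP1 was even between temperatures in TPC-1 (ratio 1.01, interval 0.964 to 1.06) and higher at 40 °C in B-CPAP (ratio 1.41, interval 1.31 to 1.51). Over both lines its log2 difference was 0.25 (SE 0.14, limma adjusted p = 0.35). WWTR1 was higher at 40 °C in both lines, with ratios of 1.14 (interval 1.10 to 1.18) and 1.35 (interval 1.24 to 1.47), and a log2 difference of 0.30 (SE 0.10, limma adjusted p = 0.24). The sum of YAP1 and WWTR1 was 1.09-fold higher at 40 °C in TPC-1 and 1.39-fold in B-CPAP.

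Among the target genes THBS1 and LATS2 were higher at 40 °C in both lines, and the others were not. THBS1 had ratios of 1.14 and 1.24 and a log2 difference of 0.25 (SE 0.08, limma adjusted p = 0.233), and LATS2 ratios of 1.11 and 1.12 and a difference of 0.15 (SE 0.11, limma adjusted p = 0.439). ANKRD1 was 1.15-fold higher at 40 °C in B-CPAP (interval 1.12 to 1.19), and its 1 and 0 reads in TPC-1 give no comparison. CCN2 was even in TPC-1 (ratio 1.003, interval 0.888 to 1.13) and slightly lower in B-CPAP (ratio 0.945, interval 0.907 to 0.984). CCN1 was higher in TPC-1 (ratio 1.10, interval 1.05 to 1.16) and lower in B-CPAP (ratio 0.918, interval 0.897 to 0.939). AMOTL2 likewise was higher in TPC-1 (ratio 1.24, interval 1.15 to 1.33) and lower in B-CPAP (ratio 0.854, interval 0.813 to 0.897). By interval, LATS2, TEAD1, THBS1 and WWTR1 were above 1 in both lines, 4 of the 10, against 16.2% of all genes, and TEAD4 below 1 in both, against 11.4%. CCN1 and AMOTL2 were above 1 in TPC-1 and below 1 in B-CPAP, against 0.436% of all genes, and none showed the reverse, against 1.29%. Of the 3 genes high in B-CPAP, ANKRD1 was above 1 and CCN1 and CCN2 were below 1 in that line, while adjusted for GC content the log2 differences there were -0.16, -0.08 and -0.09.

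**Figure D4:**
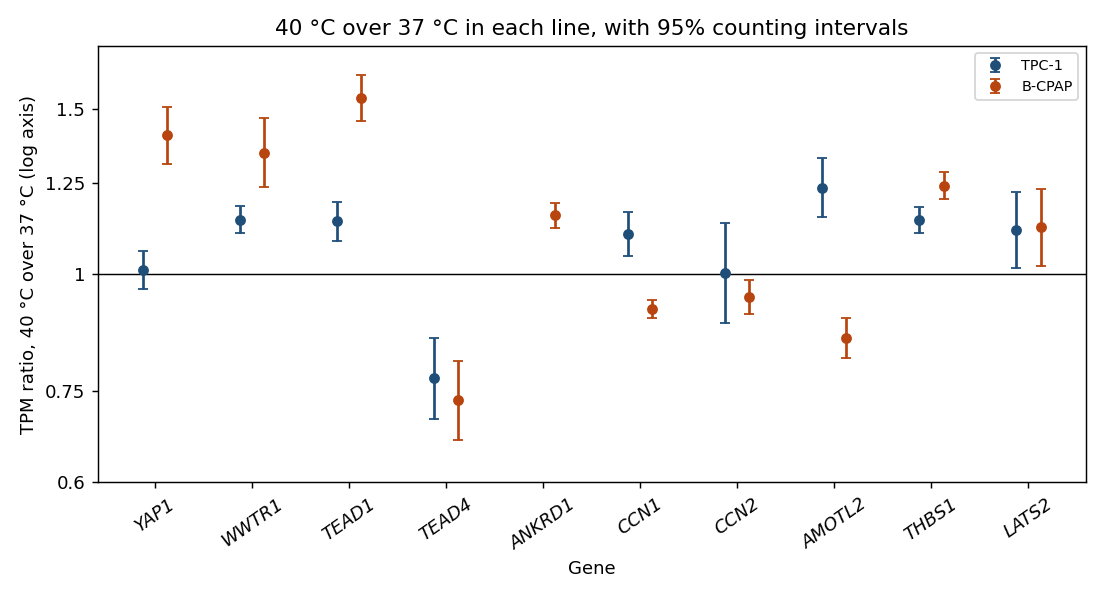
TPM ratio of 40 °C over 37 °C (vertical log axis) for each gene in TPC-1 (blue) and B-CPAP (orange), 1 library per temperature, with bars for 95% counting intervals; ANKRD1 in TPC-1 is left out as it had 1 and 0 reads. TEAD4 lies below 1 in both lines, and CCN1 and AMOTL2 lie above 1 in TPC-1 and below 1 in B-CPAP.

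Counted within each line, 6 of the 10 genes were above 1 and 1 below in TPC-1, against 21.5% and 16.1% of all genes with a read estimate. In B-CPAP 6 were above and 4 below, against 36.4% and 21.8%. Well covered genes have narrow intervals, and the 10 genes other than ANKRD1 in TPC-1 had 522 to 16452 reads each. By 1.5-fold on log2(TPM + 1), 0 of the 10 differed in TPC-1, where 5.4% of all genes were higher and 2.49% lower. In B-CPAP TEAD1 alone did, where 12.6% were higher and 2.97% lower. The median difference of the 10 genes was 0.15 (TPC-1) and 0.18 (B-CPAP), beside 0.03 and 0.09 over all genes. At 40 °C the value was above that at 37 °C for 8 of the 10 in TPC-1, against 54.3% of all genes, and for 6 in B-CPAP, against 58.2%.

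GC content of the transcripts moved with these differences. Spearman's rho of both measures, taken over 11819 protein-coding genes that are no replicates of each other, was -0.60 (TPC-1) and -0.82 (B-CPAP). The 5 genes of lowest GC content among the 10, TEAD1 (42.8%), ANKRD1 (43.3%), YAP1 (45.7%), THBS1 (47.7%) and WWTR1 (49.0%), were all higher at 40 °C in B-CPAP, and the highest, TEAD4 (62.7%), was lower in both lines. After a smooth trend in GC content was taken out within each line, the log2 differences, TPC-1 first, were 0.05 and 0.22 for TEAD1, -0.07 and 0.22 for YAP1, 0.16 and 0.28 for WWTR1 and -0.21 and -0.14 for TEAD4. ANKRD1 in B-CPAP went from 0.21 to -0.16 and AMOTL2 from -0.22 to 0.01, while AMOTL2 in TPC-1 went from 0.30 to 0.42. The adjusted difference of CCN1 was 0.17 (TPC-1) and -0.08 (B-CPAP). What produced the trend was not tested.

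**Figure D5:**
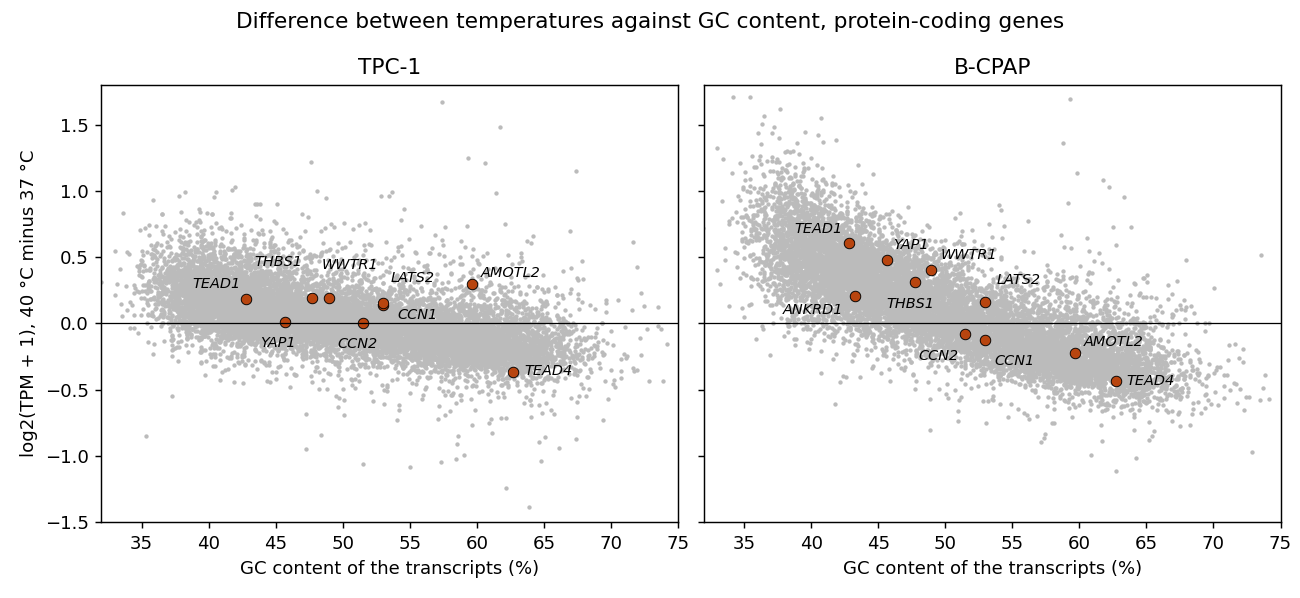
Difference in log2(TPM + 1), 40 °C minus 37 °C (vertical axis), against the GC content of the transcripts in percent (horizontal axis) in TPC-1 (left) and B-CPAP (right), with protein-coding genes in grey and the listed genes in orange (ANKRD1 in B-CPAP only; genes beyond the axes are not drawn). In B-CPAP TEAD1, YAP1 and THBS1 lie within the falling grey band, and in TPC-1 AMOTL2 (0.30 at 59.6% GC) lies above it.

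In the other pathway and SRF lists limma called 0 genes in either direction at 40 °C over both lines after adjustment over all 14912 genes. With protein-coding genes alone, where limma called 880 of 11824 higher and 470 lower, it called MOB1B (adjusted p = 0.0148), TAOK1 (0.0316), MOB1A (0.0346), CRIM1 (0.0264) and CALD1 (0.0323) higher. On the lower side of that fit were FLNA (limma adjusted p = 0.00867), CNN2 (0.0310) and TAGLN (0.0441). Of the 22 core Hippo genes 5 had an unadjusted p under 0.05, all higher (TAOK1, MOB1B, MOB1A, WWC2 and FAT1). Background shares were 11.9% higher and 7.6% lower. These 5 genes have a GC content of 37.8 to 46.9%, and adjusted for it their log2 differences over both lines went from 0.81 to 0.38 for MOB1B, 0.65 to 0.35 for TAOK1, 0.38 to 0.07 for MOB1A, 0.38 to 0.13 for WWC2 and 0.36 to 0.22 for FAT1. The LATS co-activator gene MOB1B stood at 8.89 and 12.5 TPM in TPC-1 (ratio 1.41) and at 2.41 and 6.69 TPM in B-CPAP (ratio 2.78, interval 2.31 to 3.36). TAOK1, a kinase upstream of STK3 and STK4, was at 9.69 and 11.8 TPM and at 7.24 and 15.98 TPM. Of the 17 signature genes CRIM1 (ratios 1.16 and 1.495) and TGFB2 (1.19 and 1.39) had an unadjusted p under 0.05, both higher. Adjusted for GC content, CRIM1 went from 0.39 to 0.29 and TGFB2 from 0.34 to -0.05 over both lines. Of the 11 SRF genes CALD1 was higher (ratios 1.11 and 1.67) and TAGLN (0.641 and 0.761), FLNA (0.833 and 0.776) and CNN2 (0.886 and 0.772) lower at that level. Adjusted for GC content, the differences over both lines went from 0.44 to 0.23 for CALD1, -0.45 to -0.30 for TAGLN, -0.31 to -0.10 for FLNA and -0.27 to -0.10 for CNN2.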

How the data were processed

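RNA-seq was made from 4 libraries (TruSeq RNA Library Prep Kit v2, RNeasy Plus, per the labels' protocols). The authors deposited TPM, and each column sums to the same total; per the submitters' processing notes Trimmomatic 0.38, featureCounts 2.0.0 and GRCh38 were used, and an aligner and an annotation release were not given in the sources used here. This kit keeps no strand, and genes annotated on the other strand of a listed gene reached at most 2.88 TPM. From the TPM, log2(TPM + 1) was computed, and a fold on that scale understates changes of low genes. Genes with a mean of at least 1 TPM were kept (14912 of 58884) and fitted with limma 3.58.1 (R 4.3.3; line as a block, intensity trend, two-sided), after a check on simulated data. Reads were estimated as TPM times GENCODE 29 exon length in steps of the most frequent value. Of values up to 20 reads 90.8 to 92.2% were whole within 0.02, and of values from 20 to 200 reads 65.7 to 67.7%. Among the 10 genes, ANKRD1, WWTR1, AMOTL2 and THBS1 gave whole reads in all libraries, and for the others the read number is approximate. Symbols came from the gene name table (58472 IDs matched).

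The members and lists were chosen with earlier results of these data known. The signature was recalled from the literature. Named genes were the 10 members, up to 6 genes of each list by the largest mean difference for each contrast, and the 5 closest to ANKRD1. Whether cultures were separate is not labelled. The p-values rest on how far TPC-1 and B-CPAP disagree on the difference between temperatures, and hold no spread between cultures. That disagreement is taken in part from the gene itself and in part from genes of similar level. The alternatives were pseudocounts, filters, gene types, scalings, GC content, the block, the trend and leaving out libraries.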

Additional observations from a re-analysis of the deposited data

Results flagged for a closer look

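CCN1 and AMOTL2 stood higher at 40 °C in TPC-1 and lower in B-CPAP, with counting intervals on opposite sides of 1. The TPM ratio of CCN1 was 1.10 (TPC-1) and 0.918 (B-CPAP), and that of AMOTL2 was 1.24 and 0.854. Of all genes with a read estimate 0.436% lay above 1 in TPC-1 and below 1 in B-CPAP in this way. That share includes genes with few reads and wide intervals, while CCN1 and AMOTL2 had 1394 to 16452 reads per library. The share among genes of like coverage was not computed. With 1 library per group the difference between the lines was not tested. Adjusted for GC content, the log2 difference of AMOTL2 was 0.42 (TPC-1) and 0.01 (B-CPAP), so that it no longer took opposite signs, and that of CCN1 was 0.17 and -0.08.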

How the results depend on the processing

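Over both lines limma called 0 genes at 40 °C, and also 0 with a pseudocount of 0.1, no filter, quantile normalization, rescaling without genes of the mitochondrial genome, adjustment for GC content, no block or no trend. It called 2 with a pseudocount of 5, 49 when libraries were centred on the median, 867 at a mean of at least 5 TPM (508 higher, 359 lower) and 1350 among protein-coding genes (880 higher, 470 lower). Some members had small differences over both lines: 0.0084 for CCN1, 0.037 for AMOTL2, 0.046 for ANKRD1 and -0.039 for CCN2. Each was smaller than its SE (0.086, 0.147, 0.131 and 0.082), and their signs changed with the setting. Centring turned CCN1 to -0.13, AMOTL2 to -0.10 and ANKRD1 to -0.0936. Centring moved library medians by up to 0.16 on the log2 scale, quantile normalization by up to 0.16 and rescaling without mitochondrially encoded genes by up to 0.36. CCN2 turned to 0.00509 under that rescaling. ANKRD1 turned to -0.33 with a pseudocount of 0.1, -0.00724 under quantile normalization and -0.20 when adjusted for GC content. All values of ANKRD1 over both lines include the 1 and 0 reads of TPC-1, which give no comparison. Of the 10 genes, 0 differed 1.5-fold in TPC-1, or 1 with a pseudocount of 0.1 (ANKRD1, from 1 and 0 reads). In B-CPAP TEAD1 differed 1.5-fold, and 0 genes did with a pseudocount of 5, under quantile normalization, adjusted for GC content or at 2-fold. Between the lines 5 genes differed 2-fold, 4 at 4-fold, and 5 to 7 when a library was left out. Leaving out a library leaves the fit over both lines without residual degrees of freedom, so that no test was had. The fit over both lines pairs 40 °C with 37 °C within a line through the block, and the labels give no replicate numbers to pair by. The estimated 20704723 to 24466571 reads assigned to genes per library could not resolve ANKRD1 within TPC-1.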

Other observations

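The neighbourhood of ANKRD1 on chromosome 10 was not silent in TPC-1. Within 500000 bases lay 4 other protein-coding genes. RPP30, which encodes a subunit of ribonuclease P, stood at 18.8 and 19.9 TPM (TPC-1) against 45.8 and 51.7 TPM (B-CPAP). PCGF5, a Polycomb group gene, was at 11.001 and 11.9 TPM and at 7.87 and 13.7 TPM, HTR7 at 4.95 and 6.93 TPM and at 5.44 and 6.01 TPM, and HECTD2 at 1.29 and 1.59 TPM and at 0.80 and 1.56 TPM. ANKRD1 differed from its neighbours in being at or near 0 in TPC-1.

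Few protein-coding genes met limits set close to the values of ANKRD1. At most 0.1 TPM in both TPC-1 libraries and at least 100 TPM in both B-CPAP libraries, limits chosen after the values were seen, held for 9 genes: ANKRD1, CRABP1, TIMP3, IVL, CHCHD10 and the cancer-testis genes MAGEB2, PAGE2, PAGE5 and CSAG1. ANKRD1 was the highest of the 9 in both B-CPAP libraries. CPA4, at 0.33 and 0.61 TPM (TPC-1) against 676 and 612 TPM (B-CPAP), fell outside the limits by its TPC-1 values alone. So did ACP5 and THY1, and the number of genes depends on the limits. The reverse held for 5 genes, NOX5, UCHL1, FAM20C, PXDN and MYL9, of which MYL9 is among the SRF genes described above.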
